A study of Mus musculus with 12 samples.

Results

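Macrophage and myeloid marker genes were described in white adipose tissue of mice kept in the cold. The 35 genes encode surface receptors, adaptors, lysosomal proteins, a growth factor and a transcription factor of macrophages and their relatives and were listed by symbol. They are 35 of the 18194 genes named on the array, and 35 of 35 were among the 12856 genes bright enough to test. A gene was tested when a probe set naming it exceeded a log2 signal of 4 on at least 3 arrays, and its value is that of its brightest such probe set. Of the 35, 34 exceeded 4 on all 12 arrays and Il10ra on 7.

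The study measured RNA of white adipose tissue on 12 Affymetrix expression arrays. The mice were male, of the strain given as C57/BL6, 6 to 8 weeks old, with no transgene or deletion named. The first cold group (cold_1wk, 3 arrays) spent 1 week at 4 °C and its controls (control_1wk, 3 arrays) were kept for 1 week. The second cold group (cold_5wk, 3 arrays) spent 5 weeks at 4 °C and its controls (control_5wk, 3 arrays) were kept for 5 weeks. All mice had lived at 22 °C, and per the labels' protocols adaptation to 18 °C for 1 to 3 weeks came before the cold. The titles put the controls at 30 °C and the source names put them at room temperature, so the temperature of the comparison is not settled. Neither the fat depot nor the number of animals behind an array is given, so p-values measure the spread between arrays, which may be technical.

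Macrophages are among the most common leukocytes of healthy fat. They take up dying adipocytes, lipid and debris, they depend on the growth factor CSF1 and its receptor, and they signal through Fc receptors and other receptors that pair with adaptors carrying the ITAM motif. Resident macrophages of fat carry scavenger and endocytic receptors such as those encoded by Mrc1, Cd163, Folr2 and Timd4, whereas Itgax and Trem2 are known for macrophages that gather around lipid in obesity. Several of the 35 genes are not limited to macrophages: Ptprc, Cd52, Cd53, Laptm5, Fcgr2b and Il10ra are also expressed by lymphocytes, Csf1 is also made by fat and stromal cells, and Stab1 is also expressed by some endothelial cells.

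The transcription factor PU.1, encoded by Spi1, binds purine-rich sites with the core GAGGAA in many myeloid promoters, which is why promoters with several copies of that core are shown. RefSeq promoters (GRCm38.p6, 250 bases before to 50 after each start) were found for 26 of the 35 genes, 29 promoters in all. The letters GAGGAA, or TTCCTC on the other strand, were in 14 of the 29 (48.3%), belonging to 13 genes, and in 9289 of all 32851 promoters of the same length (28.3%). The longer form GAGGAAGT, which contains the first motif, was in 1 of the 29 (3.45%), a promoter of Cd53, and in 3.20% of all. The 2 promoters of Fcgr3 overlap and hold the same match to the first motif, which is counted in both. A match is a description of letters, not a binding site. Capitals mark each GAGGAA or TTCCTC in the promoters that hold at least 2 matches, each written 5′ to 3′ on the strand of its gene.
Cd53, chr3:106790100-106790399, minus strand: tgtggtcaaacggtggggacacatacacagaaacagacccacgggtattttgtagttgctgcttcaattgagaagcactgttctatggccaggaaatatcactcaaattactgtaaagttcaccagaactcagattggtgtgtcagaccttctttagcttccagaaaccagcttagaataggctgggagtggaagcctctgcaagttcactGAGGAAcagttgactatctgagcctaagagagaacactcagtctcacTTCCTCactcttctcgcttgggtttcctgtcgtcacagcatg
Itgam, chr7:128062390-128062689, plus strand: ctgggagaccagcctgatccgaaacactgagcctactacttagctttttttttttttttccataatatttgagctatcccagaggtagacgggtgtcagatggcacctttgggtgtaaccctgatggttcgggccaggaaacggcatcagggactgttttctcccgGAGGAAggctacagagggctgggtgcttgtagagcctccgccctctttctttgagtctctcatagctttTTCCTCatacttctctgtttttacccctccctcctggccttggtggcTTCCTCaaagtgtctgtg
Cd68, chr11:69666121-69666420, minus strand: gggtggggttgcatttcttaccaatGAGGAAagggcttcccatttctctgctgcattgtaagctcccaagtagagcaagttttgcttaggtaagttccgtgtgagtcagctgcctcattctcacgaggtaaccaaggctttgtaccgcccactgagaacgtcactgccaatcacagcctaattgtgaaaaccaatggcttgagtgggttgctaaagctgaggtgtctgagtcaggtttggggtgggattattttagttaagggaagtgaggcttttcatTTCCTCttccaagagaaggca
Mrc1, chr2:14229164-14229463, plus strand: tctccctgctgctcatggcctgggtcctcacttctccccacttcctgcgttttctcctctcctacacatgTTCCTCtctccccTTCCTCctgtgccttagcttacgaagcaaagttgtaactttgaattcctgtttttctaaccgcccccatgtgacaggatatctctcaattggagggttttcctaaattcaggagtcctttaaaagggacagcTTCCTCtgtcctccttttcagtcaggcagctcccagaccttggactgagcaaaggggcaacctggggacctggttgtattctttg

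Some arrays stood apart from the others in measures that are not macrophage genes. Within groups, arrays correlated at r = 0.991 to 0.998 over all 45101 probe sets. Adipoq, the adipokine that defines fat cells, averaged 14.69 and 14.65 in cold_1wk and cold_5wk, against 14.71 and 14.79 in control_1wk and control_5wk. Ucp1, the uncoupling protein of heat-producing fat cells, separated the conditions, at 15.02 and 14.67 in cold_1wk and cold_5wk and 7.37 and 6.96 in control_1wk and control_5wk. The mean of 12 skeletal muscle markers was 9.90 on array 2 of cold_1wk and 8.52 to 8.76 on the control_5wk arrays, and 4.83 to 5.83 on the other 8. The gap between 3′ and 5′ control probe sets of Gapdh, a log2 measure of RNA integrity, was 3.00 and 3.12 on arrays 2 and 3 of control_1wk and 3.01 on array 3 of cold_5wk, and 0.96 or less on the rest. The same gap for Actb was 1.84 to 2.80 in cold_5wk, against 1.04 to 1.16 in control_5wk, and 1.01 to 1.35 at 1 week in both conditions. A call at 1 or 5 weeks that was gained or lost without an array with a high Gapdh gap, without both such arrays of control_1wk, or without the array of cold_1wk with muscle signal, is given with the gene.

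Most of the 35 genes were lower in the cold at both times. After 1 week, 28 of 35 (80%) were lower in cold than in control fat at an adjusted p under 0.05 in limma, beside a background of 31.6% of all tested genes, and 0 of 35 were higher, beside 17.9%. After 5 weeks, 27 of 35 (77.1%) were lower, beside 21.2%, and 0 were higher, beside 15%. The unadjusted limma p under 0.05 gave the same counts, 28 lower and 0 higher at 1 week, beside 35.3% and 21.2% of all tested genes, and 27 lower and 0 higher at 5 weeks, beside 26.2% and 19.5%. The median of the 35 log2 differences was -0.81 at 1 week, a 1.75-fold lower signal, and -0.79 at 5 weeks, 1.73-fold lower, against -0.08 and -0.03 over all tested genes. In 23 of 35 genes (65.7%) the fall passed the test at both times, beside 12.5% of all genes.

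In 28 of the 35 genes at 1 week (background 33.7%) and 27 at 5 weeks (background 30.7%), all 3 cold arrays lay below all 3 control arrays. The mean signal of the 35 genes was 8.72, 8.77 and 8.57 on the cold_1wk arrays, against 9.34, 9.40 and 9.50 on the control_1wk arrays. It was 8.65, 8.77 and 8.69 on the cold_5wk arrays, against 9.52, 9.50 and 9.49 on the control_5wk arrays. Every cold array thus lay below every control array on this mean. The mean of all tested genes separated the conditions too, by less, at 7.79 to 7.87 on the cold arrays and 7.90 to 7.92 on the control arrays. For 22 of the 35 genes all 6 cold arrays lay below all 6 control arrays, beside 14.1% of all tested genes. In tissue measured whole, fewer cells of a type and less RNA per cell cannot be told apart.

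The 1 week count was 21 of 35 lower without both control_1wk arrays with a high Gapdh gap and 22 with that gap as a covariate, beside 14.5% and 15% of all genes. The 7 genes lost without those arrays were Cd52, Cd68, Csf1r, Cd163, Folr2, Stab1 and Msr1. With the gap as a covariate Cd52, Adgre1, Csf1r, Cd163, Stab1, Msr1 and Mertk were lost, and Spi1 was gained. Leaving out array 2 of cold_1wk, the array with muscle signal, gave 29. The 5 week count was 25 without array 3 of cold_5wk, 16 with the muscle mean as a covariate, and 9 with the Actb gap as a covariate, beside 7.51% and 2.41% of all genes in the last pair of fits. The 9 were Laptm5, Aif1, Cd163, Folr2, Timd4, Marco, Fcgr3, Cybb and Il10ra. The Actb gap and the muscle mean separate cold_5wk from control_5wk with no overlap, so that their part in the 5 week result and that of the cold cannot be told apart.

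**Figure D1:**
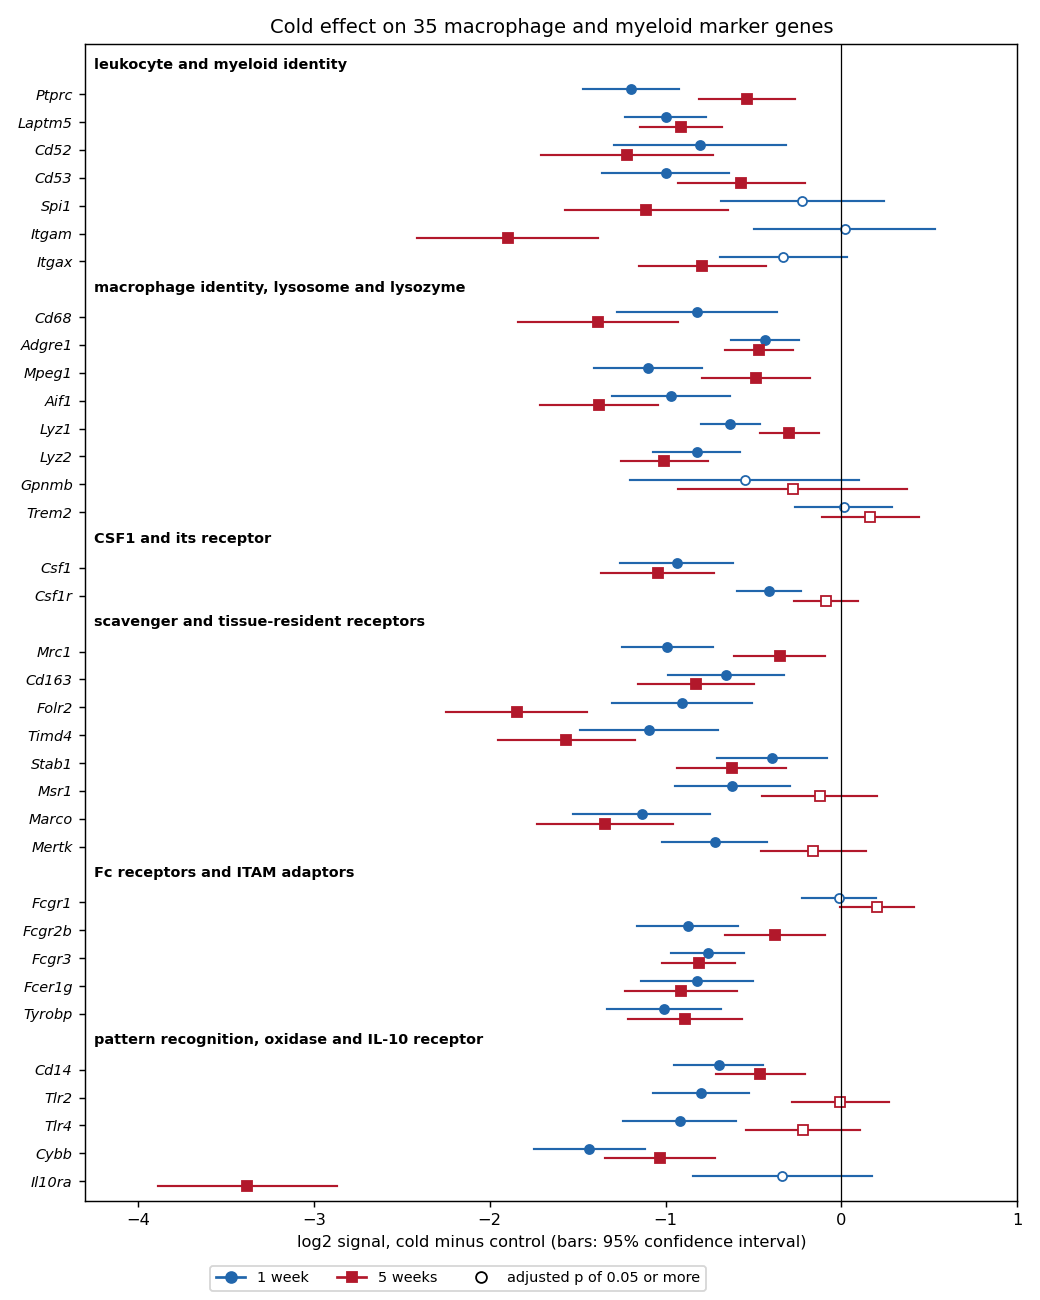
Log2 difference, cold minus control, of each of the 35 genes at 1 week (blue circles) and 5 weeks (red squares), with 95% confidence intervals from limma, grouped by role; open symbols have an adjusted p of 0.05 or more. At 1 week 28 filled symbols and at 5 weeks 27 lie left of 0, and no filled symbol lies right of it. The 5 week value of Il10ra rests on cold signals under the limit of 4 and is a fitted value, not a measured size.

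Among the 7 genes of leukocyte and myeloid identity, 4 fell at 1 week and 7 at 5 weeks (57.1% and 100%). The counts by role stand beside the 31.6% and 21.2% of all tested genes that were lower at 1 and 5 weeks, and each role has few genes. Ptprc, which encodes the leukocyte phosphatase CD45, read 11.73, 11.70 and 11.95 on the cold_1wk arrays, against 12.69, 13.06 and 13.21 on the control_1wk arrays. Its signals were 12.44, 12.49 and 12.56 in cold_5wk, against 13.06, 12.96 and 13.07 in control_5wk. The cold arrays were the lower at both times with no overlap, and those of 1 week were the lowest of all. Ptprc fell, with log2 differences of -1.20 at 1 week and -0.54 at 5 weeks (SE 0.12 and 0.12, adjusted p = 3.01e-05 and 0.00637).

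Laptm5, a lysosomal membrane protein of blood cells, had signals of 11.71, 11.81 and 11.52 in cold_1wk, against 12.56, 12.75 and 12.72 in control_1wk. At 5 weeks it read 11.67, 11.79 and 11.95 in the cold, against 12.68, 12.65 and 12.82 in controls. The cold groups overlapped each other, as did the control groups, and the conditions did not. The differences were -0.998 (SE 0.11, adjusted p = 3.3e-05) and -0.91 (SE 0.11, adjusted p = 8.48e-05).

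Itgam, the CD11b chain of complement receptor CR3, behaved otherwise. It read 5.07, 4.74 and 5.32 in cold_1wk, against 5.52, 4.70 and 4.85 in control_1wk, with the groups overlapping (log2 0.02, SE 0.23, adjusted p = 0.953). It read 4.78, 4.60 and 4.13 in cold_5wk, against 6.35, 6.60 and 6.25 in control_5wk. The 5 week control arrays stood above all 9 others. The 5 week difference was -1.90 (SE 0.23, adjusted p = 0.000132).

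Cd52 and Cd53, a small surface glycoprotein and a tetraspanin of leukocytes, fell at both times, with log2 differences of -0.81 and -1.22 for Cd52 and -0.999 and -0.57 for Cd53. Without arrays 2 and 3 of control_1wk the 1 week difference of Cd52 was -0.46 and did not pass (adjusted p = 0.291). The 5 week call of Cd53 (adjusted p = 0.0195) was lost on leaving out array 1 or 3 of cold_5wk or array 1 or 3 of control_5wk, with adjusted p up to 0.0681. Spi1, the gene of PU.1, differed by -0.22 at 1 week (adjusted p = 0.397) and fell by 1.11 at 5 weeks (adjusted p = 0.00199). Its cold arrays overlapped the controls at 1 week and lay below them at 5 weeks. Itgax, the integrin chain CD11c, differed by -0.33 at 1 week (adjusted p = 0.117) and fell by 0.79 at 5 weeks (adjusted p = 0.00347). Without array 2 of cold_1wk its 1 week difference was -0.54 and passed (adjusted p = 0.00467).

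Of 8 genes of macrophage identity, lysosome and lysozyme, the same 6 fell at both times. Mpeg1, the pore-forming perforin-2 of phagocytes, read 10.17, 10.38 and 9.92 in cold_1wk, against 11.04, 11.19 and 11.53 in control_1wk. At 5 weeks it read 10.78, 10.80 and 10.64 in the cold, against 11.26, 11.15 and 11.26 in controls. Controls were alike at both times, and the cold arrays came nearer to them at 5 weeks without reaching them. The log2 differences were -1.10 (SE 0.14, adjusted p = 0.000101) and -0.49 (SE 0.14, adjusted p = 0.0186). The 5 week call was lost on leaving out array 3 of cold_5wk or array 1 or 3 of control_5wk, with adjusted p up to 0.0608.

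Aif1, the actin-binding protein IBA1 of macrophages and microglia, read 8.13, 8.51 and 8.30 in cold_1wk, against 9.01, 9.23 and 9.61 in control_1wk. It read 7.89, 8.13 and 8.08 in cold_5wk, against 9.56, 9.35 and 9.33 in control_5wk. Its cold arrays were below its controls at both times with no overlap. Aif1 fell, with log2 differences of -0.97 (SE 0.15, adjusted p = 0.000399) and -1.38 (SE 0.15, adjusted p = 6.19e-05).

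The lysozymes Lyz1 and Lyz2 digest bacterial cell walls, and Lyz2 is the form of macrophages. Their sequences are close, so probes for one may also report the other, and the probe set of Lyz1 carries the suffix _x_at that marks such probes. Lyz2 read 12.85, 13.13 and 12.86 in cold_1wk, against 13.64, 13.72 and 13.95 in control_1wk. It read 12.62, 12.88 and 12.71 in cold_5wk, against 13.80, 13.76 and 13.67 in control_5wk. Every cold array was below every control array for Lyz2, and the log2 differences were -0.82 (adjusted p = 0.000168) and -1.01 (adjusted p = 7e-05). Lyz1 read 14.15, 14.23 and 14.13 in cold_1wk, against 14.73, 14.83 and 14.84 in control_1wk. It read 14.30, 14.39 and 14.49 in cold_5wk, against 14.69, 14.67 and 14.71 in control_5wk. Lyz1 again had no overlap, and it fell, with log2 differences of -0.63 (adjusted p = 7.81e-05) and -0.30 (adjusted p = 0.0113).

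Cd68, a glycoprotein of lysosomes that marks macrophages, fell, with log2 differences of -0.82 (adjusted p = 0.00667) and -1.39 (adjusted p = 0.000446). Adgre1, the gene of the macrophage antigen F4/80, fell, with log2 differences of -0.43 and -0.47 (adjusted p = 0.00190 and 0.00177), smaller in size than the median of the 35 genes at both times. Neither gene had overlapping groups. The 1 week call of Cd68 was lost without arrays 2 and 3 of control_1wk (log2 -0.70, adjusted p = 0.124). Gpnmb, a glycoprotein of lipid-laden macrophages, differed by -0.55 and -0.28 (adjusted p = 0.144 and 0.497) and its groups overlapped at both times. Without array 2 of cold_1wk its 1 week difference was -0.80 (adjusted p = 0.0480). Trem2, a lipid-sensing receptor, differed by 0.01 (95% interval -0.26 to 0.29) and 0.16 (95% interval -0.11 to 0.44), with overlap at both times.

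CSF1 is the growth factor that keeps macrophages alive, and CSF1R is its receptor. Csf1 read 7.98, 8.55 and 8.03 in cold_1wk, against 9.12, 9.20 and 9.04 in control_1wk. It read 8.17, 8.49 and 8.28 in cold_5wk, against 9.26, 9.46 and 9.36 in control_5wk. The cold arrays of both times lay together, below the controls of both times. The log2 differences were -0.94 (SE 0.15, adjusted p = 0.000380) and -1.05 (SE 0.15, adjusted p = 0.000289).

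Csf1r read 11.31, 11.29 and 11.23 in cold_1wk, against 11.56, 11.75 and 11.76 in control_1wk. It read 11.62, 11.61 and 11.78 in cold_5wk, against 11.77, 11.78 and 11.72 in control_5wk. Cold arrays were lower at 1 week, and at 5 weeks they overlapped the controls. Csf1r fell by 0.41 at 1 week (SE 0.08, adjusted p = 0.00197), and at 5 weeks it differed by -0.09 (95% interval -0.27 to 0.10, adjusted p = 0.446). Without arrays 2 and 3 of control_1wk the 1 week difference was -0.28 and did not pass (adjusted p = 0.0961).

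All 8 scavenger and tissue-resident receptors fell at 1 week, and 6 did at 5 weeks. Mrc1, the mannose receptor, read 11.22, 10.98 and 10.95 in cold_1wk, against 11.83, 12.08 and 12.20 in control_1wk. It read 11.20, 11.42 and 11.47 in cold_5wk, against 11.73, 11.76 and 11.64 in control_5wk. The gap between the conditions was narrower at 5 weeks, still with no overlap. Mrc1 fell, with log2 differences of -0.99 (SE 0.12, adjusted p = 7e-05) and -0.35 (SE 0.12, adjusted p = 0.0382). The 5 week call was lost on leaving out any of the 5 week arrays other than array 3 of cold_5wk, with adjusted p from 0.0593 to 0.140.

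Folr2, a folate receptor of resident macrophages, read 8.95, 8.80 and 8.28 in cold_1wk, against 9.57, 9.55 and 9.63 in control_1wk. It read 7.53, 7.92 and 7.28 in cold_5wk, against 9.53, 9.45 and 9.29 in control_5wk. The controls of both times were close, and the cold_5wk arrays lay below the cold_1wk arrays. The log2 differences were -0.91 (SE 0.18, adjusted p = 0.00185) and -1.85, a 3.59-fold lower signal (SE 0.18, adjusted p = 3.06e-05). The 1 week value was -0.89 without arrays 2 and 3 of control_1wk and then missed the threshold (adjusted p = 0.0518).

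Timd4, a receptor for phosphatidylserine on dying cells, read 8.38, 8.58 and 8.54 in cold_1wk, against 9.46, 9.60 and 9.72 in control_1wk. It read 7.74, 8.20 and 8.60 in cold_5wk, against 9.88, 9.76 and 9.60 in control_5wk. Both cold groups lay below both control groups, and cold_5wk was the most spread. Timd4 fell 2.13-fold (log2 -1.09, adjusted p = 0.000500) and 2.96-fold (log2 -1.56, adjusted p = 7.78e-05).

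Marco, a class A scavenger receptor that binds bacteria and particles, read 6.97, 7.48 and 7.67 in cold_1wk, against 8.36, 8.80 and 8.37 in control_1wk. It read 7.39, 7.50 and 7.73 in cold_5wk, against 8.92, 8.91 and 8.82 in control_5wk. No cold array reached the lowest control array. Marco fell 2.20-fold (log2 -1.14, adjusted p = 0.000373) and 2.54-fold (log2 -1.34, adjusted p = 0.000193).

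Msr1, another class A scavenger receptor, takes up modified lipoprotein. It read 7.01, 6.47 and 6.60 in cold_1wk, against 7.13, 7.49 and 7.32 in control_1wk. It read 6.81, 6.87 and 6.94 in cold_5wk, against 7.02, 6.80 and 7.18 in control_5wk. The groups were apart at 1 week and overlapped at 5 weeks. Msr1 fell by 0.62 at 1 week (SE 0.15, adjusted p = 0.00517) and differed by -0.12 at 5 weeks (95% interval -0.45 to 0.20). The 1 week call of Msr1 was lost without arrays 2 and 3 of control_1wk (log2 -0.43, adjusted p = 0.166). Mertk, a kinase receptor for the clearance of dying cells, likewise fell at 1 week, with a log2 difference of -0.72 (adjusted p = 0.00127), against -0.16 at 5 weeks (adjusted p = 0.392). Without array 3 of cold_5wk the 5 week difference of Mertk was -0.32 and passed (adjusted p = 0.0428).

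Cd163, the scavenger receptor for haemoglobin bound to haptoglobin, fell, with log2 differences of -0.65 and -0.83 (adjusted p = 0.00405 and 0.00154). Stab1, a scavenger receptor shared with endothelial cells, fell, with log2 differences of -0.39 and -0.62 (adjusted p = 0.0379 and 0.00558). The 1 week call of Stab1 held only without array 1 of cold_1wk among the fits that left out 1 array, and adjusted p reached 0.145 without array 3 of cold_1wk. Without arrays 2 and 3 of control_1wk the 1 week differences were -0.58 for Cd163 and -0.45 for Stab1, and neither passed (adjusted p = 0.102 and 0.173). For both genes the cold arrays lay below the controls at each time.

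**Figure D2:**
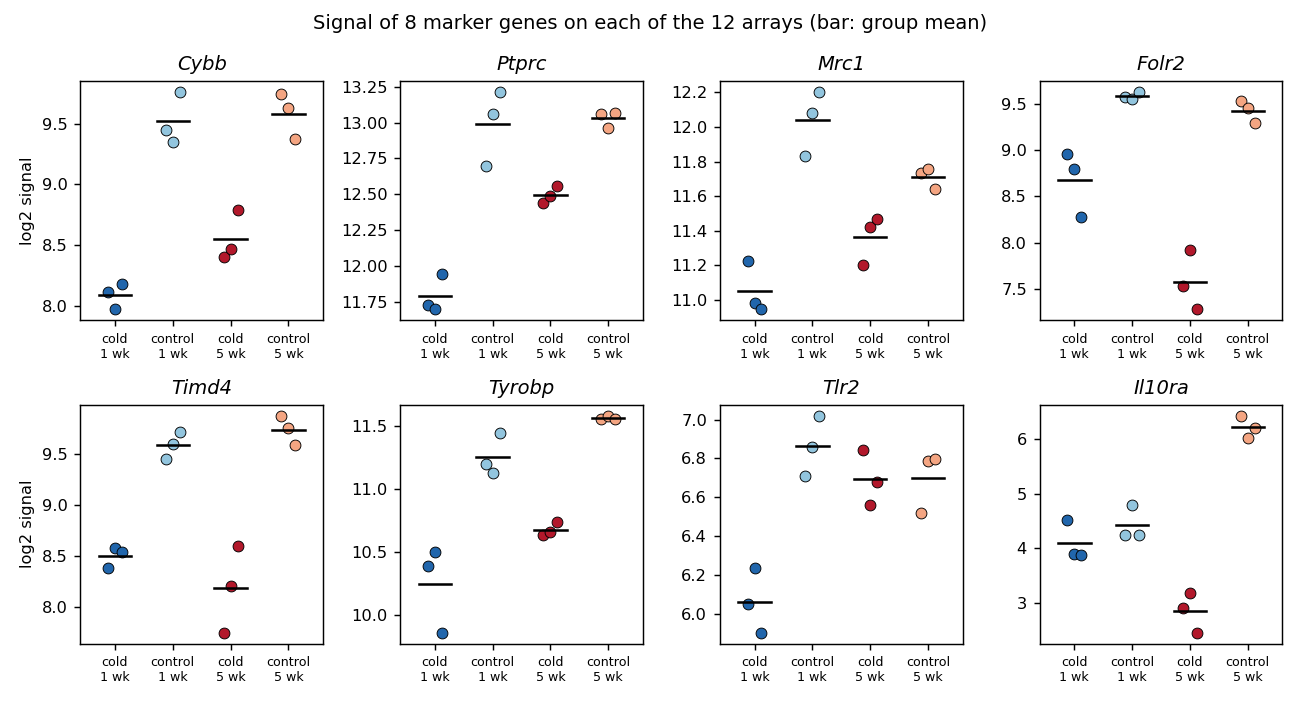
Log2 signal of Cybb, Ptprc, Mrc1, Folr2, Timd4, Tyrobp, Tlr2 and Il10ra on each of the 12 arrays (points) with the group mean (bar), cold left of control at each time; the vertical scales differ between panels. Cold points lie below control points in every panel at 1 week except Il10ra and at 5 weeks except Tlr2.

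Fc receptors bind antibody, and FCER1G and TYROBP (DAP12) are adaptors that carry the ITAM signal of activating Fc receptors and of related receptors. Of these 5 genes, the same 4 fell at both times. Fcgr3, a low-affinity activating receptor for IgG, read 8.30, 8.36 and 8.22 in cold_1wk, against 9.07, 8.98 and 9.12 in control_1wk. It read 8.11, 8.09 and 8.38 in cold_5wk, against 8.98, 9.08 and 8.96 in control_5wk. The conditions were well apart, and the times alike within each condition. Fcgr3 fell, with log2 differences of -0.76 (SE 0.09, adjusted p = 8.76e-05) and -0.81 (SE 0.09, adjusted p = 8.96e-05).

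Fcer1g read 8.76, 8.84 and 8.42 in cold_1wk, against 9.27, 9.46 and 9.75 in control_1wk. It read 8.67, 8.76 and 8.65 in cold_5wk, against 9.70, 9.71 and 9.41 in control_5wk. All cold arrays were below all control arrays. The log2 differences were -0.82 (adjusted p = 0.000813) and -0.91 (adjusted p = 0.000642).

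Tyrobp read 10.39, 10.50 and 9.86 in cold_1wk, against 11.20, 11.12 and 11.45 in control_1wk. It read 10.64, 10.66 and 10.74 in cold_5wk, against 11.55, 11.58 and 11.56 in control_5wk. Array 3 of cold_1wk was the lowest of the 12, and no cold array overlapped the controls. Tyrobp fell 2.01-fold (log2 -1.01, adjusted p = 0.000254) and 1.85-fold (log2 -0.89, adjusted p = 0.000885).

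Fcgr2b, the inhibitory receptor for IgG that B cells also carry, fell, with log2 differences of -0.88 at 1 week (adjusted p = 0.000273) and -0.38 at 5 weeks (adjusted p = 0.0408). The 5 week call was lost on leaving out any 1 of the 6 arrays, with adjusted p from 0.0597 to 0.139, and without arrays 2 and 3 of control_1wk (adjusted p = 0.0501). Fcgr1, the high-affinity receptor for IgG, differed by -0.01 (95% interval -0.22 to 0.19) and 0.20 (95% interval -0.01 to 0.41) and did not pass at either time on its brightest probe set. With each array shifted to a common median, or quantile normalized, the 5 week value of Fcgr1 passed as a rise, and as the mean of its probe sets it was -0.48 and passed as a fall.

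The last 5 genes sense microbes, make oxidants or receive interleukin-10, and 4 of them fell at 1 week and 3 at 5 weeks. Cybb, the catalytic gp91phox subunit of the phagocyte oxidase, read 8.11, 7.97 and 8.17 in cold_1wk, against 9.45, 9.35 and 9.76 in control_1wk. It read 8.40, 8.46 and 8.79 in cold_5wk, against 9.75, 9.63 and 9.37 in control_5wk. Every cold array was below every control array. The 1 week fall was the largest among the 35 genes at that time, 2.70-fold (log2 -1.43, SE 0.14, adjusted p = 2.42e-05), and at 5 weeks it was 2.04-fold (log2 -1.03, SE 0.14, adjusted p = 0.000276).

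Tlr2, a receptor for bacterial lipoproteins, read 6.05, 6.24 and 5.90 in cold_1wk, against 6.71, 6.86 and 7.02 in control_1wk. It read 6.84, 6.56 and 6.68 in cold_5wk, against 6.52, 6.79 and 6.80 in control_5wk. The cold_1wk arrays stood below all 9 others, which overlapped. Tlr2 fell by 0.80 at 1 week (SE 0.12, adjusted p = 0.000390) and differed by -0.01 at 5 weeks (95% interval -0.28 to 0.27).

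Tlr4, the receptor for endotoxin, read 7.68, 7.30 and 7.59 in cold_1wk, against 8.59, 8.25 and 8.49 in control_1wk. It read 8.06, 7.66 and 8.12 in cold_5wk, against 8.11, 8.31 and 8.07 in control_5wk. Again the groups were apart at 1 week and overlapped at 5 weeks. The differences were -0.92 (SE 0.15, adjusted p = 0.000454) and -0.22 (SE 0.15, adjusted p = 0.281). Cd14, which hands endotoxin to the Tlr4 product, fell, with log2 differences of -0.70 (adjusted p = 0.000542) and -0.46 (adjusted p = 0.00939).

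Il10ra, the ligand-binding chain of the interleukin-10 receptor, read 4.52, 3.89 and 3.87 in cold_1wk, against 4.24, 4.80 and 4.25 in control_1wk. It read 2.90, 3.18 and 2.45 in cold_5wk, against 6.44, 6.02 and 6.21 in control_5wk. The groups overlapped at 1 week (log2 -0.34, adjusted p = 0.247). All 3 cold_5wk arrays were under the limit of 4 and all 3 control_5wk arrays above every other array. With signals below 4 set to 4, Il10ra was at least 4.67-fold lower at 5 weeks (adjusted p = 2.77e-06 on the signals as deposited).

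Whether the cold effect differed between the times was tested as the 5 week difference minus the 1 week difference, where a positive value means a smaller fall at 5 weeks. This comparison passed in 8 of the 35 genes (22.9%, beside 19.9% of all tested genes). In 5 genes (14.3%, beside 11.5% of all tested genes) it was positive, and in 3 (8.57%, beside 8.39%) negative. Both shares are near those of all genes. The unadjusted p under 0.05 gave 10 positive and 4 negative genes, beside 20.8% and 14.5% of all tested genes. Across the 35 genes the 1 week and 5 week differences had a Pearson r of 0.07, given as a description over genes of the same arrays.

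The 5 genes with a smaller fall at 5 weeks were Tlr2 (0.79, SE 0.18, adjusted p = 0.0137), Tlr4 (0.70, adjusted p = 0.0373), Ptprc (0.66, adjusted p = 0.0260), Mrc1 (0.64, adjusted p = 0.0239) and Mpeg1 (0.61, adjusted p = 0.0494). The 3 with a larger fall were Itgam (-1.92, SE 0.33, adjusted p = 0.00641), Folr2 (-0.94, SE 0.26, adjusted p = 0.0284) and Il10ra. Tlr4 also had a dimmer probe set, 1418163_at, that passed in the other direction, as a larger fall (-0.95, adjusted p = 0.0427). The size for Il10ra is not measured, since 5 of its 6 cold signals were under 4: the fitted value was -3.04 (adjusted p = 0.00159), and -1.96 with signals below 4 set to 4 (adjusted p = 0.00311). With the Gapdh or the Actb gap as a covariate, 0 of the 8 passed, and without arrays 2 and 3 of control_1wk only Il10ra did. Csf1r, Msr1 and Mertk passed at 1 week and not at 5 weeks, yet their difference between the times did not pass (adjusted p = 0.0750, 0.117 and 0.0617). Nor did it for Spi1 and Itgax, which passed at 5 weeks alone (adjusted p = 0.0579 and 0.184).

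Setting 5 weeks against 1 week within each condition gives the change on each side. For Mrc1 (0.31 in the cold and -0.33 in controls) and Tlr4 (0.42 and -0.28) neither side passed at an adjusted p under 0.05. In the cold, 7 of 35 genes (20%, beside 15.4% of all genes) were higher at 5 weeks: Ptprc (0.70), Tlr2 (0.63), Mpeg1 (0.58), Fcgr2b (0.53), Cybb (0.47), Csf1r (0.39) and Lyz1 (0.23). In the cold, 3 (8.57%, beside 12%) passed as lower at 5 weeks: Folr2 (-1.10), Cd163 (-0.60) and Il10ra. A dimmer probe set of Fcgr2b, 1451941_a_at, also passed as lower (-0.39, adjusted p = 0.0384), against the rise of its brightest set. With signals below 4 set to 4, Il10ra differed by -0.17 and did not pass (adjusted p = 0.503), so this call compares signals under the limit. In controls, Itgam (1.38, adjusted p = 0.0150) and Il10ra (1.79, adjusted p = 0.00423) were higher at 5 weeks (5.71%, beside 1.28%) and 0 genes were lower, beside 1.27%, with 4 lower at an unadjusted limma p under 0.05, beside 10.6%. For Itgam and Il10ra the control arrays therefore differed between the times as well. The week and the array set of a time were not separated by the design, so age and handling of the arrays cannot be told apart from time.

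Probe sets of a gene did not always report the same change. The 35 genes had 66 probe sets, 56 of them past the filter, and 11 genes had more than 1. Of the 32 probe sets of these 11 genes, 19 were lower, 2 higher and 11 not called at 1 week, and 21 were lower, 0 higher and 11 not called at 5 weeks. Over all 56, 37 were lower at 1 week, beside 27.2% of all probe sets past the filter, and 41 at 5 weeks, beside 20%. The 3 probe sets of Cybb all fell at both times, as did both sets of Marco at 5 weeks and the 3 sets of Laptm5 and of Lyz1 at 5 weeks.

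At 1 week, Csf1 and Msr1 had probe sets called in opposite directions. The probe set 1425154_a_at of Csf1 rose by 0.32 (adjusted p = 0.0158), whereas its brightest, 1460220_a_at, fell by 0.94. The probe set 1425434_a_at of Msr1 rose by 0.40 (adjusted p = 0.0431), whereas its brightest, 1448061_at, fell by 0.62. For Fcgr1 the second probe set, 1417876_at, fell by 0.51 at 1 week (adjusted p = 0.0346) and had a difference of -1.17 at 5 weeks (adjusted p = 0.000593), whereas the brightest did not pass. Taken as the mean of its probe sets, Csf1 differed by -0.12 at 1 week, Marco by -0.33, Tlr4 by -0.30 and Msr1 by -0.08, and none of these 4 passed (adjusted p = 0.454, 0.260, 0.183 and 0.506). At 5 weeks the mean of the sets of Ptprc was -0.41 (adjusted p = 0.0568), and that of Csf1r was -0.42 and passed (adjusted p = 0.00191). Csf1r had 2 further probe sets that fell at 5 weeks, 1419873_s_at (log2 -0.31, adjusted p = 0.0292) and 1423593_a_at (log2 -0.86, adjusted p = 0.00364).

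Of the 56 probe sets, 11 (19.6%) were not called at 1 week and lower at 5 weeks, beside 8.43% of all probe sets past the filter. They include the only tested probe sets of Spi1, Itgam, Itgax and Il10ra and a dimmer set each of Laptm5, Lyz1, Csf1, Csf1r, Marco, Fcgr2b and Tlr4. In 10 of the 11 the control_5wk mean was the highest of the 4 groups, and in 3 the rise of control_5wk over control_1wk passed the test. Set 1458297_s_at of Marco averaged 6.72 in cold_1wk, against 6.24 in control_1wk, and 5.56 in cold_5wk, against 7.79 in control_5wk. Set 1418163_at of Tlr4 averaged 6.94 in cold_1wk, against 6.91 in control_1wk, and 6.26 in cold_5wk, against 7.18 in control_5wk. The brightest sets of Marco and Tlr4 were lower at 1 week, so the time at which a fall was seen differed between sets of a gene. The Actb gap was highest in cold_5wk and lowest in control_5wk, on group means, and its part in these 11 was not tested. The places of the probe sets on their transcripts were not used here.

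**Figure D3:**
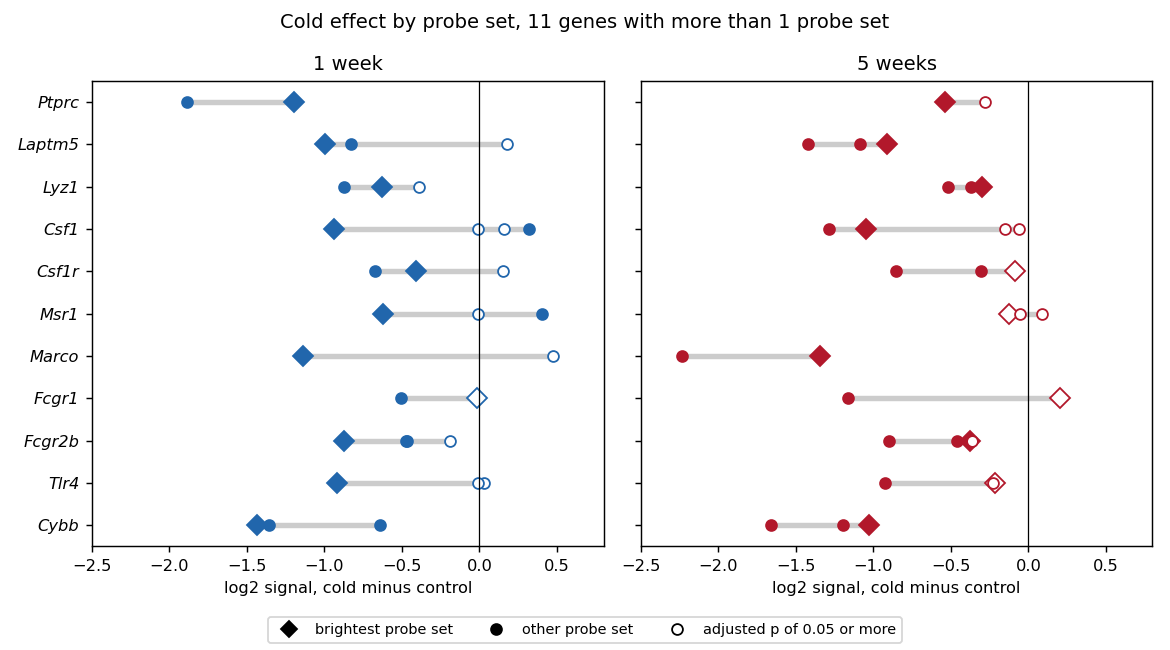
Log2 difference, cold minus control, of each probe set past the filter for the 11 genes with more than 1, at 1 week (left) and 5 weeks (right); diamonds are the brightest probe set, circles the others, and open symbols have an adjusted p of 0.05 or more. Filled symbols right of 0 are the Csf1 and Msr1 sets at 1 week, at 0.32 and 0.40.

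Genes that work with these receptors were listed by pathway, and their counts too stand beside 31.6% lower and 17.9% higher at 1 week and 21.2% lower and 15% higher at 5 weeks among all tested genes. In CSF1 receptor and ITAM signalling, 10 of 13 tested genes fell at 1 week and 10 at 5 weeks, and 0 rose (medians -0.68 and -0.64). Ptpn6, the phosphatase SHP-1, averaged 9.37 ± 0.36 in cold_1wk, against 10.48 ± 0.42 in control_1wk, and 8.94 ± 0.16 in cold_5wk, against 10.46 ± 0.01 in control_5wk (SD, n = 3 each). Its log2 differences were -1.11 and -1.52 (adjusted p = 0.00130 and 0.000276). Inpp5d, the inositol phosphatase SHIP, fell, with log2 differences of -0.84 and -0.67, as did Csf2ra, a chain of the GM-CSF receptor, with -0.78 and -0.41, and Vav1, an exchange factor for Rac, with -0.63 and -1.72. Dok2, an adaptor that dampens kinase signals, differed by -0.01 at 1 week (adjusted p = 0.926) and fell by 0.64 at 5 weeks (adjusted p = 0.000145). Il34, which encodes the other ligand of the CSF1 receptor, was at or under 4 on all arrays.

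Among partners of the oxidase and the Toll-like receptors, 7 of 11 fell at 1 week and 8 at 5 weeks, and 0 rose (medians -0.63 and -0.79). Cyba, the p22phox partner of the Cybb product, averaged 10.01 ± 0.25 in cold_1wk, against 10.93 ± 0.16 in control_1wk, and 9.45 ± 0.18 in cold_5wk, against 10.94 ± 0.05 in control_5wk (SD, n = 3 each). It fell, with log2 differences of -0.93 and -1.49 (adjusted p = 0.000257 and 1.9e-05). Rac2, the small GTPase that switches on the oxidase, fell, with log2 differences of -0.60 and -1.75, as did Ly96, the MD-2 partner of the Tlr4 product, with -0.88 and -0.79. Tlr1, which pairs with the Tlr2 product, fell by 1.17 at 1 week (adjusted p = 0.000422) and differed by -0.34 at 5 weeks (adjusted p = 0.181).

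Myeloid transcription factors were mixed, with 7 of 12 lower and 3 higher at 1 week and 7 lower and 2 higher at 5 weeks (medians -0.50 and -0.46). Maf fell, with log2 differences of -0.94 and -0.59 (adjusted p = 1.36e-05 and 0.000371), as did Zeb2 with -0.92 and -0.45, and Id2 with -0.58 and -0.64. Irf5, an interferon regulatory factor of macrophages, differed by -0.40 at 1 week (adjusted p = 0.0599) and fell by 1.03 at 5 weeks. Cebpb, which also acts in fat cell formation, went the other way. It averaged 12.21 ± 0.08 in cold_1wk, against 10.36 ± 0.48 in control_1wk, and 11.33 ± 0.20 in cold_5wk, against 10.18 ± 0.31 in control_5wk (SD, n = 3 each). Its rises were 1.85 (adjusted p = 7.08e-05) and 1.15 (adjusted p = 0.00215).

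Of 14 phagocyte lysosome genes, 6 fell and 2 rose at 1 week (42.9% and 14.3%), near the shares of all tested genes, and 8 fell and 1 rose at 5 weeks (57.1% and 7.14%, medians -0.19 and -0.49). Ctss, the cathepsin of antigen-presenting cells, averaged 12.30 ± 0.17 in cold_1wk, against 13.39 ± 0.28 in control_1wk, and 12.52 ± 0.06 in cold_5wk, against 13.25 ± 0.09 in control_5wk (SD, n = 3 each). It fell, with log2 differences of -1.10 and -0.73, as did Grn, the progranulin gene, with -0.66 and -0.54. The proteases Ctsz and Lgmn differed by 0.14 and -0.24 at 1 week (adjusted p = 0.448 and 0.172) and fell at 5 weeks, with a log2 difference of -0.83 for Ctsz (adjusted p = 0.00118). Lgmn averaged 7.68 ± 0.13 in cold_5wk, against 8.68 ± 0.17 in control_5wk (SD, n = 3 each, adjusted p = 0.000252 in limma). Lipa, the acid lipase that frees fatty acids and cholesterol in lysosomes, rose by 0.88 and 0.69 (adjusted p = 0.000174 and 0.00122).

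Markers of other cells in fat moved beside the 35 genes. Among all tested genes 31.6% were lower and 17.9% higher at 1 week. At 5 weeks 21.2% were lower and 15% higher. The counts of all marker lists, here and below, stand beside these shares. Of 14 T, B and NK lymphocyte markers, 13 were lower at each time (medians -0.89 and -0.78). Their mean signal was 8.31 to 8.76 in cold_1wk, against 9.09 to 9.79 in control_1wk, and 8.57 to 8.62 in cold_5wk, against 9.50 to 9.55 in control_5wk. Ptprc, Cd52, Cd53, Laptm5, Fcgr2b and Il10ra are shared with such cells, and the part of lymphocytes in their falls was not tested. Of 9 fibroblast markers, 9 were lower at 1 week and 8 at 5 weeks (medians -0.75 and -0.62), so that falls of this size were also seen in genes of fibroblasts.

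Other leukocyte lists held fewer genes. Monocyte markers were lower in 4 of 6 genes at 1 week and 3 at 5 weeks, dendritic cell markers in 4 and 3 of 6, and mast cell and eosinophil markers in 3 and 4 of 5. Neutrophil markers were lower in 2 of 8 and 3 of 8 (25% and 37.5%), at 1 week below the 31.6% of all tested genes. The mean signal of the 8 tested neutrophil markers was nonetheless lower on every cold array than on every control array at each time. Mpo, Elane and Ltf, also listed for neutrophils, were at or under 4 on all arrays and are not among the 8. So were Xcr1 of dendritic cells and Fcer1a, Epx, Prg2 and Ccr3 of mast cells and eosinophils. In none of these lists was a gene higher in the cold.

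Fat and vessel markers had calls in both directions. White adipocyte markers were lower in 3 of 10 genes at 1 week (30%, near the 31.6% of all tested genes) and higher in 4. At 5 weeks 3 were lower and 1 was higher. Of 9 thermogenic adipocyte markers, 8 were higher at each time. Endothelial markers were higher in 5 and lower in 1 of 10 at 1 week, and higher in 1 and lower in 3 at 5 weeks. Skeletal muscle markers were lower in 9 of 12 at 5 weeks, where the control arrays were high, and higher in 2 at 1 week. Epithelial and epididymal markers, with 2 tested genes of 7, were higher in 1 and 0, and both tested erythrocyte transcripts were higher at 1 week and neither passed at 5 weeks. The share of RNA from each of these cells was not measured, and its part in the falls of the 35 genes was not tested.

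**Figure D4:**
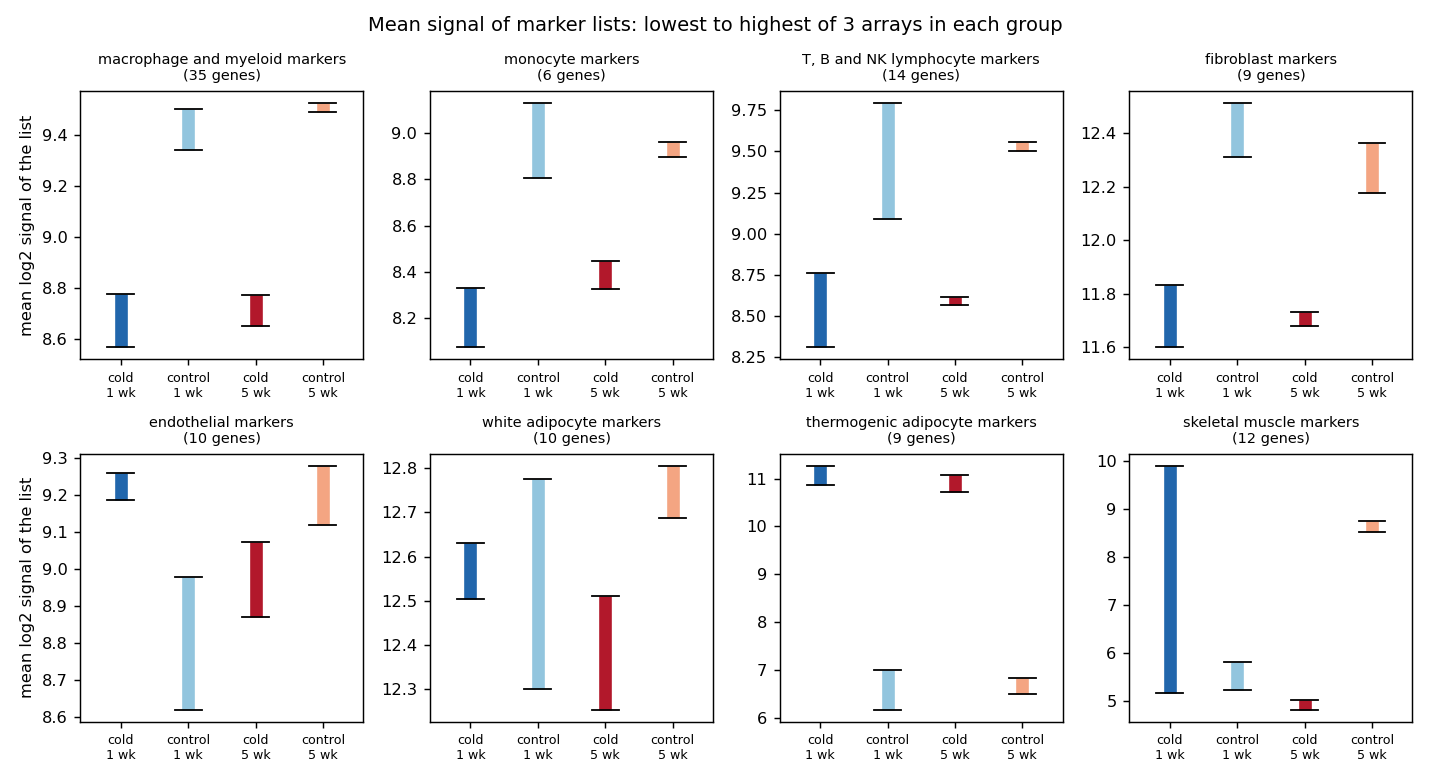
Mean log2 signal of each marker list, drawn from the lowest to the highest of the 3 arrays of a group, cold left of control at each time; the vertical scales differ between panels. The macrophage and myeloid, monocyte, lymphocyte and fibroblast ranges lie lower in cold than in control fat at both times with no overlap, and the thermogenic range lies higher.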

How the data were processed

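RNA of white adipose tissue was hybridised to 12 Affymetrix arrays, each from 5 µg of total RNA per the labels' protocols. The table the authors deposited holds a log2 signal for each probe set on each array, computed by GCRMA per the submitters' processing notes; its version is not given in the sources used here. GCRMA corrects background and normalizes between arrays, so values are relative. Precision is limited by the number of arrays.

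Of 45101 probe sets, 34958 named 1 gene in the array annotation, 932 several and 9211 none, and only those naming 1 gene were used. The filter kept 22391 of these, and the brightest per gene by its mean over 12 arrays was tested. R 4.3.3 with limma 3.58.1 fitted 4 group means over all 12 arrays (lmFit and eBayes, 2-sided), with Benjamini-Hochberg adjustment over the 12856 genes and a threshold of 0.05. The fit was tested on simulated data. Motif counts used Python 3.11.15.

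The 35 genes and all lists were chosen with earlier results of these data known. Array values are printed for the 2 genes with the smallest adjusted p at each time in each role, those with probe sets called in opposite directions, and those whose cold effects differed between the times. From each list of partner genes up to 5 with the smallest adjusted p are named. Alternatives were other filters, scalings, probe set rules and fits, covariates for RNA integrity and muscle signal, and single arrays left out.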

Additional observations from a re-analysis of the deposited data

Results flagged for a closer look

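In 8 genes the cold effect at 5 weeks minus that at 1 week passed limma's test (adjusted p under 0.05, n = 3 arrays per group), 22.9% of the 35, near the 19.9% of all tested genes. A positive value means a smaller fall at 5 weeks: Tlr2 0.79, Tlr4 0.70, Ptprc 0.66, Mrc1 0.64 and Mpeg1 0.61. A dimmer probe set of Tlr4, 1418163_at, passed in the other direction (-0.95, adjusted p = 0.0427). A negative value means a larger fall: Itgam -1.92, Folr2 -0.94 and, as a fitted value, Il10ra -3.04. The size for Il10ra is not measured, since 5 of its 6 cold signals were under 4, and it was -1.96 with signals below 4 set to 4. The difference of Itgam, Tlr2 and Il10ra passed on leaving out any single array, and that of the other 5 was lost on leaving out at least 1. None of the 8 passed with the Gapdh or the Actb gap as a covariate or with the control_5wk arrays counted as 1. Array values of each gene are in the report.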

How the results depend on the processing

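At 1 week, 28 genes were lower, and 21 to 28 were under 14 alternatives and the one chosen after seeing the data, with 0 higher in each; 15 of the 28 passed under every alternative. At 5 weeks 8 of 27 did. Both counts take in Laptm5 and Aif1, which had no test without probe sets ending _s_at or _x_at. That alternative tested 33 of the 35 genes, so Laptm5 and Aif1 passed only under the others. The 5 week count was 14 with the 3 control_5wk arrays, the most alike, averaged and counted as 1, 16 with the muscle mean and 9 with the Actb gap as a covariate, and 21 to 28 otherwise. With each array shifted to a common median, the median of all genes was 0.14 at 1 week and 0.13 at 5 weeks, against -0.08 and -0.03 as deposited, and the share of rises among calls 63.9% and 66.6%, against 36.2% and 41.4%; the medians of the 35 genes were then -0.59 and -0.63. Under it and under quantile normalization 1 gene, Fcgr1, was higher at 5 weeks.

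The 8 differences between the times (3 lower, 5 higher) were the least stable. Lower and higher counts were 0 and 0 with the Gapdh gap, the Actb gap or control_5wk counted as 1, 1 and 0 without arrays 2 and 3 of control_1wk, and 5 and 3 with the mean of all probe sets. The higher count was 3 with arrays shifted to a common median and 1 with the muscle covariate. For 5 weeks against 1 week in the cold, the lower and higher counts of 3 and 7 were 0 and 0 with the Actb gap, and the higher count was 3 with the Gapdh gap or the mean of all probe sets. In controls the higher count of 2 was 4 with the mean of all probe sets, 1 without arrays 2 and 3 of control_1wk, and 0 with the Gapdh gap or control_5wk counted as 1, and the lower count of 0 was 2 with only the 6 control arrays.

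With the mean of all probe sets, the 1 week calls of Csf1 (-0.12), Marco (-0.33), Tlr4 (-0.30) and Msr1 (-0.08) and the 5 week call of Ptprc (-0.41) were lost, Fcgr1 at 5 weeks became -0.48, Csf1r at 5 weeks (-0.42) was gained, and the difference between the times -0.59 for Laptm5 and -0.16 for Tlr4. Without probe sets ending _s_at or _x_at, 5 weeks against 1 week in the cold became -0.20 for Lyz1 and -0.17 for Fcgr2b. The causes of these changes were not tested.

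Leaving out 1 array gave 27 to 29 lower genes at 1 week and 23 to 25 at 5 weeks, 2 to 4 lower and 1 to 8 higher for the difference between the times, 3 to 5 lower and 5 to 8 higher in the cold, and 0 lower and 1 to 3 higher in controls. For the difference, the higher count was 1 without array 3 of control_1wk, array 3 of cold_5wk or array 1 of control_5wk. With the replicate number of the titles as a block, 28 genes were lower at 1 week and 25 at 5 weeks. Same-numbered arrays correlated above 0.1 in 2 of 18 pairs (r from -0.11 to 0.18) and 6 of 12 arrays correlated best with their own number, so the numbers were not taken to pair arrays. The difference between the times needs all 12 arrays and has no value from 6. Signal under log2 4 limits Il10ra alone among the 35 genes. Setting signals below 4 to 4, an alternative chosen after seeing the data, left 28 and 27 lower genes, gave 6 positive differences between the times with Lyz1 gained, and ended the call of Il10ra for 5 weeks against 1 week in the cold.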
